A study of Mus musculus with 4 samples.

Results

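Translation initiation and elongation factors are the proteins that bring ribosomes to the start codon and move them along the message. They were taken from the deposited table by name: every gene whose symbol begins with Eif1 to Eif6, Eef1 or Eef2, leaving out the eIF2 kinases (Eif2ak genes) and symbols with -ps. This gave 83 genes of 25413 in the table, of which 61 had enough counts to be tested. RNA came from EpH4, an established mouse mammary epithelial line of wild-type genotype, grown in 2D. Control cells were left untreated (2 libraries), and the others were exposed to PM2.5, which is airborne particulate matter of small diameter (2 libraries). Neither the dose nor the exposure time is given in the sources used here, all 4 libraries carry 1 batch label, and nothing says whether replicates were separate cultures, so the p-values cover only how far these libraries scatter, which may be technical scatter. Each gene's level was compared between exposed and untreated cells.

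As background, initiation starts when eIF2 carries the initiator tRNA to the small ribosomal subunit, where eIF1, eIF1A and eIF3 help to select the start codon. The eIF4 factors bind the cap and unwind the leader, and eIF4E-binding proteins hold the cap-binding protein back. eIF2B recharges eIF2 with GTP, a step that stress kinases block by phosphorylating eIF2. In elongation eEF1A delivers aminoacyl-tRNA, a complex of the other eEF1 subunits recharges eEF1A, and eEF2 moves the ribosome by a codon.

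The mRNAs of several of these factors begin with a terminal oligopyrimidine (TOP) tract, a C followed by an unbroken stretch of C and T at the transcript's start, through which mTOR signalling is known to control their translation. The stretches below come from RefSeq (GRCm38.p6) and are shown because they let the known TOP messages be set beside the 2 eIF4G genes that moved in opposite directions. Each is 30 bases long. Capitals mark the longest run of C and T beginning with C on the gene's strand, within 30 bases on either side of an annotated start. Where a gene had several annotated starts, the one with the longest run was used, here and for the shares over all genes. Genes with more listed starts could therefore show longer runs.
Eef1a1: cgtgtgctggctccgCCCTCTTCCCgaggg
Eef2: gttgacgtcagcggtCTCTTCCgccgcagc
Eif4b: tcggacgccgcgccaCCCCCTCgcgctgct
Eif3f: ctcttctgttctaggCTCTCTCTCTTTCTC
Eef1b2: cggaagtagccgaggCCTTgcgtccgagcg
Eif4g1: agcaaatcccatgtgCTTCCCCggcgccag
Eif4g3: aaaagggccgaaaagCTCCgagcggccgtc
They lie at chr9:78481715-78481744 (minus strand, Eef1a1), chr10:81176631-81176660 (plus, Eef2), chr15:102073768-102073797 (plus, Eif4b), chr7:108934396-108934425 (plus, Eif3f), chr1:63176833-63176862 (plus, Eef1b2), chr16:20672688-20672717 (plus, Eif4g1) and chr4:137993429-137993458 (plus, Eif4g3).

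The run was 15 bases in Eif3f, 10 in Eef1a1, 7 in Eef2, Eif4b and Eif4g1, and 4 in Eef1b2 and Eif4g3. Counted from the annotated start used, it began at -4 in Eif3f, -5 in Eef1a1, 15 in Eef2, 10 in Eif4b and 17 in Eef1b2. In Eif4g1 (-24) and Eif4g3 (-11) it lay wholly before the start used, so it was outside the transcript annotated from that start. Of 27025 genes with a start in the table, 2.16% had a run of at least 15 bases, 9.95% one of at least 10, 29.7% one of at least 7 and 82.2% one of at least 4. A start was matched and used for 49 of the 83 genes. The members on chromosome 18 (Eif1a, called lower, Eif3j2 and Eif4ebp3) were left out whether or not a start was listed. The median run was 6 bases in the 21 genes of these 49 called lower in PM2.5, 4 in the 23 tested and not called, and 5 over all genes. Of 9 members listed as TOP messages (Eef1a1, Eef1b2, Eef1d, Eef1g, Eef2, Eif3e, Eif3f, Eif3h and Eif4b), 5 were called lower and 0 higher, against 21 and 2 of the other 52 tested members. Over all tested genes 20.4% were called lower and 19.2% higher. The median log2 fold change was -0.18 in the 9 and -0.14 in the other 52. After a smooth trend on abundance, GC content and gene length was removed, 4 of the 9 were lower and 1 higher. Over all tested genes 19% were then lower and 16.7% higher. The medians were then -0.06 in the 9 and -0.1 in the other 52. At an unadjusted p under 0.05, 6 of the 9, 29 of the other 52 and 3043 of all 12478 tested genes were lower.

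Total counts ran from 18548478 to 26206329 per library. A count of 3, the floor used for a gene at 0, came to 0.116 to 0.158 CPM (counts scaled to the library total); floors cover counting error only. Markers did not follow the epithelial label: of 12 epithelial genes, 11 averaged below 1 CPM and 6, among them Epcam, Krt18 and Esrp1, had 0 counts in every library. The summed epithelial level, nearly all of it Krt14, was 51.5 to 53.4 CPM in controls and 20 to 21.6 CPM in PM2.5. Mesenchymal markers summed to 8897 to 9561 CPM in controls and 6629 to 7268 CPM in PM2.5, with Fn1, Vim and Col1a2 the largest terms. In the same list Dcn, Col1a1, Col3a1 and Pdgfra lay above both controls in both PM2.5 libraries, Dcn with 44.1 and 83.7 CPM in controls against 221 and 280 CPM. The leukocyte, adipocyte and endothelial lists stayed below 1 CPM in each library. The part of these shifts in the results below was not tested, and fewer cells of a type cannot be told apart from less RNA per cell in bulk samples.

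Of the 61 translation factors tested, 26 were called lower and 2 higher (edgeR quasi-likelihood test, Benjamini-Hochberg adjusted p below 0.05 over all genes), and 33 were not called. That is 42.6% lower, against a background of 20.4% of all tested genes, and 3.28% higher, against 19.2%. The median log2 fold change was -0.14 over these genes and 0.01 over all genes tested. The log2 fold change was below 0 in 53 of 61, or 86.9%, against 49.1% of all tested genes. Both PM2.5 libraries lay below both controls in 43 (70.5%, background 35.1%) and above both in 6 (9.84%, background 35.9%). Abundance moved with this: among the 3120 most abundant of the tested genes 34.3% were lower and 13.9% higher, and of the 41 translation factors among them 21 (51.2%) were lower and 0 higher. A smooth trend of the fold change on abundance, GC content and gene length was then removed. After that 17 of the 61 (27.9%, background 19%) were lower and 3 higher (background 16.7%), with a median of -0.09. The calls that ended then were those on Eif1, Eif1a, Eif1ax, Eif2a, Eif2b1, Eif3g, Eif3m, Eif4a3, Eif5, Eif5a and Eef1g among the falls and on Eif5a2 among the rises. With PM2.5 replicate 2 left out 15 of the 61 were lower, or 16 counting Eef1ece2, which was tested only in some alternatives (background 13.1%). With Control replicate 2 left out 32 of the 61 were, or 33 with Eef1ece2 (background 20.1%). Scaling to library size only gave 17 lower (background 15.1%) and 5 higher (background 24.7%).

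**Figure D1:**
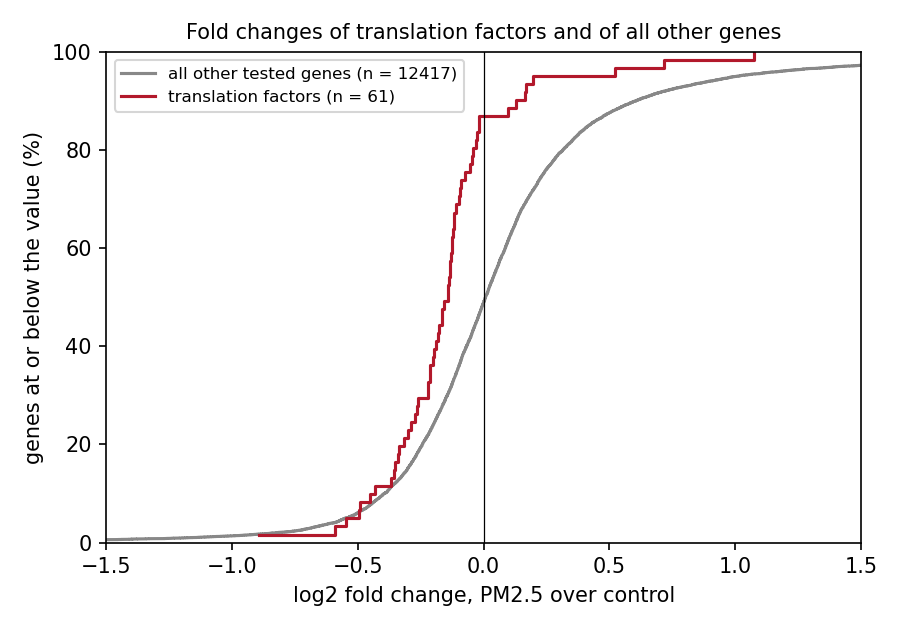
Cumulative share of genes (y axis, percent) at or below each log2 fold change of PM2.5 over control (x axis) for the 61 tested translation factors and all other tested genes. The translation factor curve reaches 86.9% at 0, where the curve of the other genes is near the middle of its range.

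Levels per kilobase (RPKM) were also summed by role, and single genes weigh heavily in some sums, as Eef1a1 does in that of eEF1. The eEF1 genes summed to 5190 and 5183 RPKM in controls and 4614 and 4537 RPKM in PM2.5, the eIF3 genes to 1479 and 1413 against 1309 and 1272 RPKM, and the eIF2B genes to 108 and 102 against 88 and 87.5 RPKM. Of the sums of 11 role groups, 10 had both PM2.5 libraries below both controls, and the exception was the eIF1A-domain group. Taken singly, 35.1% of all tested genes lay so, and 51.1% of the 3120 most abundant. The groups are unlike in size, eEF2 being 1 gene. Together the 83 genes took 3.15% and 3.07% of all counts in controls and 2.82% and 2.75% in PM2.5.

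**Figure D2:**
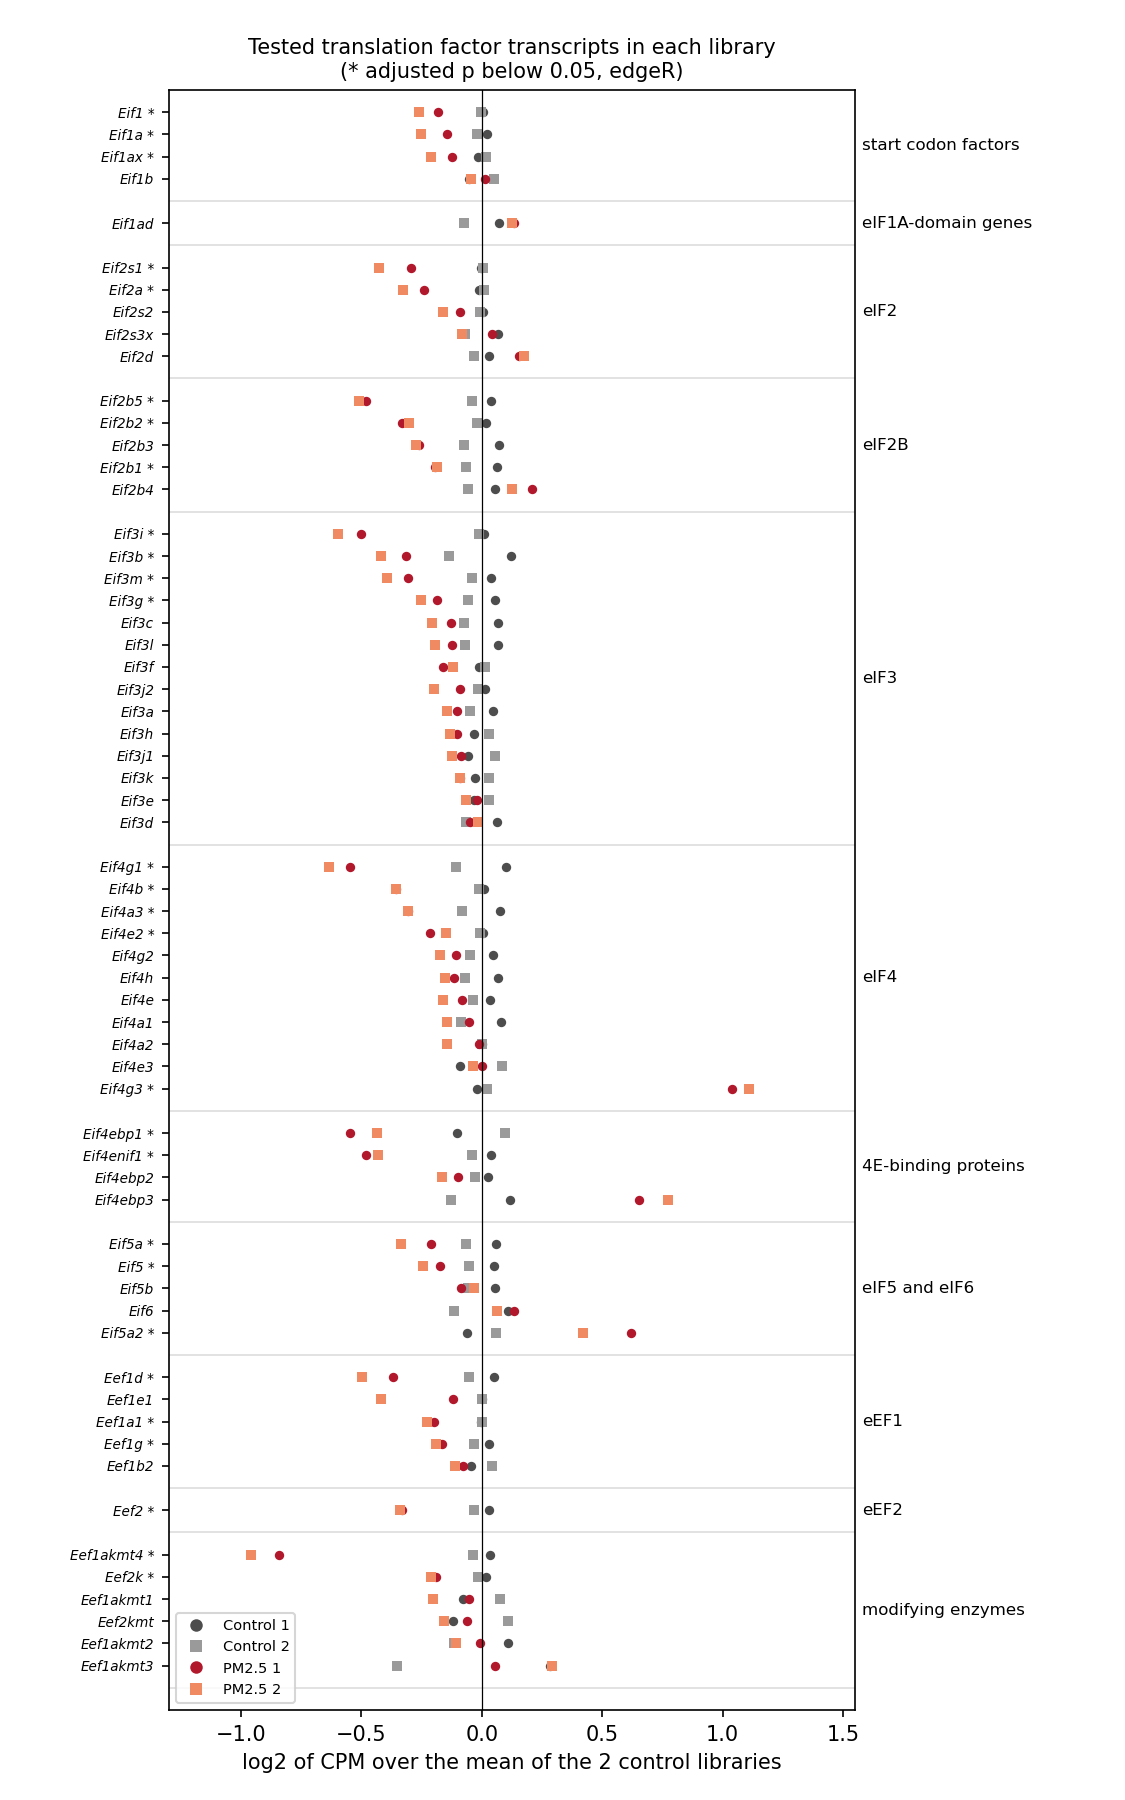
Each tested translation factor (rows, by role) with its CPM in each of the 4 libraries as log2 over the control mean (x axis); circles are replicate 1, squares replicate 2, and an asterisk marks an adjusted p below 0.05. Red and orange PM2.5 points lie left of the grey controls in most rows, and Eif4g3 lies furthest to the right.

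For this and the role groups below, the background was 20.4% lower and 19.2% higher over all tested genes. Among factors that select the start codon, 3 of 4 were lower and 0 higher. Eif1, which guards against initiation at wrong codons, had 421 and 419 CPM in controls and 370 and 351 CPM in PM2.5 (420 ± 1.09 and 360 ± 13.4, SD, n = 2), which is -0.22 on the log2 scale (SE 0.0547, adjusted p = 0.00913). Its groups did not overlap. The eIF1A genes Eif1a and Eif1ax, the latter X-linked, fell by 0.20 and 0.17 on the log2 scale (adjusted p = 0.0255 and 0.0422), and they had near-equal levels, with an Eif1ax to Eif1a RPKM ratio of 0.957 to 1.01 in the 4 libraries. Eif1b, a close relative of Eif1, had 17.7 and 19 CPM in controls and 18.5 and 17.8 CPM in PM2.5, with overlapping groups. All 3 calls ended without PM2.5 replicate 2 (adjusted p = 0.126, 0.238 and 0.312) and after trend removal. That of Eif1 held in 14 of 17 alternative analyses (other scalings, filters, tools and offsets, a replicate block, total gene reads and left-out libraries), that of Eif1a in 10 (lost also without Control replicate 1, 0.0622, with upper-quartile or library-size scaling and on both RPKM scales) and that of Eif1ax in 8 (lost also under those scalings and RPKM scales, with DESeq2, without Control replicate 2, 0.0805, and without PM2.5 replicate 1, 0.0788).

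In the eIF2 group 2 of 5 tested genes were lower and 0 higher. Eif2s1, the alpha subunit that stress kinases phosphorylate, had 166 and 167 CPM in controls and 136 and 124 CPM in PM2.5, or a log2 change of -0.35 (SE 0.0618, adjusted p = 0.00134). Its 2 partner subunits did not pass the test. Eif2s2 (beta) had 317 and 314 CPM against 296 and 282 CPM (adjusted p = 0.0883), and Eif2s3x (gamma) 508 and 463 CPM against 500 and 459 CPM (adjusted p = 0.843). The groups of Eif2s3x overlapped, and its Y-linked copy Eif2s3y had 0 counts in every library. Eif2a, a separate protein that can bring initiator tRNA to the ribosome, fell from 137 and 139 CPM to 117 and 110 CPM (log2 fold change -0.29, adjusted p = 0.00357). Eif2d, which acts in reinitiation and ribosome recycling, had 58.7 and 56.2 CPM in controls and 63.9 and 64.8 CPM in PM2.5 (adjusted p = 0.0675). The call on Eif2a ended when the trend was removed (log2 fold change -0.16, adjusted p = 0.06).

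Of the 5 subunits of eIF2B, 3 were lower and 0 higher. Eif2b5, the catalytic epsilon subunit (ENSMUSG00000003235, chromosome 16, 20317567 to 20328073, plus strand, GRCm39), had 128 and 121 CPM in controls and 89.2 and 87.4 CPM in PM2.5, or a log2 change of -0.49 (SE 0.0605, adjusted p = 0.000157). Eif2b2 (beta) had 49.4 and 48.1 CPM against 38.8 and 39.5 CPM (log2 fold change -0.32, adjusted p = 0.00436), and both calls held in each of the 17 alternatives. Eif2b1 (alpha) had 74.5 and 68.3 CPM against 62.4 and 62.7 CPM, close to the threshold at adjusted p = 0.0488. That call held in 6 of 17 alternatives. It ended without Control replicate 1 (0.205), without either exposed library (0.161 each), under all 3 other scalings (0.0502 to 0.158), with the stricter filter, with DESeq2 (0.13), on both RPKM scales and after trend removal. Eif2b3 (gamma) did not pass, at -0.27 on the log2 scale (adjusted p = 0.061; 58.8% of its total gene reads in controls lay outside the raw count). Eif2b4 (delta) lay on the other side, with 33.7 and 31.1 CPM in controls and 37.4 and 35.3 CPM in PM2.5 (log2 fold change 0.17, adjusted p = 0.107). Its PM2.5 libraries were both above the controls, whereas those of the other subunits were all below.

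All 14 genes of eIF3, the large scaffold that binds the small ribosomal subunit, had a log2 fold change below 0, from -0.55 to -0.03. Of all tested genes 49.1% were below 0. In this group 4 (28.6%) were called lower and 0 higher, the share lower being not far above the 20.4% of all tested genes. With upper-quartile or library-size scaling 12 of the 14 stayed below 0. After trend removal 10 did, with 2 (14.3%, background 19%) called lower and 1 higher (background 16.7%). Eif3i (ENSMUSG00000028798, chromosome 4, 129485753 to 129494441, minus strand, GRCm39) had 151 and 149 CPM in controls and 106 and 99.2 CPM in PM2.5. Its log2 fold change was -0.55 (SE 0.0599, adjusted p = 7.56e-05), the largest fall among the eIF3 genes. Eif3b, which with Eif3i and Eif3g forms a module at the subunit's edge, had 667 and 558 CPM against 492 and 458 CPM (log2 fold change -0.37, SE 0.0802, adjusted p = 0.00483). Its controls differed from each other by more than its PM2.5 libraries did, but the groups did not overlap. Eif3g fell from 103 and 95.3 CPM to 87.1 and 83.2 CPM (adjusted p = 0.0217), and Eif3m from 151 and 143 CPM to 119 and 112 CPM (adjusted p = 0.00148). Just past the threshold lay Eif3c (log2 fold change -0.17, adjusted p = 0.0589), Eif3l (-0.16, 0.0616) and Eif3f (-0.14, 0.062), which were called lower in 6, 5 and 3 of the 17 alternatives. Eif3e and Eif3h had log2 fold changes of -0.04 and -0.12 (adjusted p = 0.572 and 0.111), and Eif3d, a cap-binding subunit, one of -0.03 (0.708). After trend removal Eif3e turned to 0.16 and was called higher (adjusted p = 0.0486). Of the paralogs for subunit j, Eif3j2 was at 34.1 RPKM in controls and Eif3j1 at 3.23 RPKM, and neither passed the test. The call on Eif3g was lost with library-size scaling (adjusted p = 0.0691). It was also lost with Control replicate 1 or PM2.5 replicate 2 left out (log2 fold changes -0.17 and -0.19). After trend removal Eif3g and Eif3m had adjusted p = 0.59 and 0.0864.

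Of 11 tested eIF4 genes 4 were lower and 1 higher, and the one that rose had the largest called rise among all tested translation factors. Eif4g1, the main scaffold of the cap-binding complex (ENSMUSG00000045983, chromosome 16, 20487063 to 20511634, plus strand, GRCm39), had 1413 and 1222 CPM in controls and 901 and 849 CPM in PM2.5. That gave a log2 change of -0.59 (SE 0.0731, adjusted p = 0.00016). Eif4g3, a paralog that can take its place in the complex (ENSMUSG00000028760, chromosome 4, 137720333 to 137935819, plus strand), had 23.1 and 23.8 CPM in controls and 48.2 and 50.6 CPM in PM2.5. It rose 2.1-fold (log2 fold change 1.07, SE 0.0727, adjusted p = 4.17e-06). Both calls held in each of the 17 alternatives. Per kilobase, Eif4g1 still exceeded Eif4g3 in every library: it was 103 and 86.5 times higher in controls and 31.5 and 28.2 times higher in PM2.5. This ratio did not overlap between groups; an exact permutation test of 2 against 2 cannot give less than p = 0.333. Eif4g2, a scaffold that does not bind the cap-binding protein, had 1881 and 1764 CPM against 1691 and 1617 CPM (adjusted p = 0.0877).

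Eif4b, which stimulates the helicase that unwinds leaders, had 866 and 854 CPM in controls and 672 and 672 CPM in PM2.5, or a log2 change of -0.36 (SE 0.0532, adjusted p = 0.000527). The helicase genes themselves did not pass the test: Eif4a1 had 1172 and 1045 CPM against 1068 and 1003 CPM (adjusted p = 0.273), and Eif4a2 229 and 229 CPM against 227 and 207 CPM (adjusted p = 0.353). The groups of Eif4a1 overlapped. Eif4a3, the related helicase of the exon junction complex, fell from 155 and 139 CPM to 119 and 119 CPM (adjusted p = 0.00485; 0.124 after trend removal). The cap-binding Eif4e had 206 and 196 CPM against 190 and 180 CPM (adjusted p = 0.133). Eif4e2, a cap-binding relative that represses translation, had 109 and 108 CPM against 93.4 and 98 CPM (adjusted p = 0.0353). Its call held in 9 of 17 alternatives, ending without Control replicate 1 (0.0646), without either exposed library (0.246 and 0.0922), with upper-quartile or library-size scaling, with DESeq2 (0.0803) and on both RPKM scales. Eif4e3, the third cap-binding gene, was at 3.88 RPKM in controls and 3.89 in PM2.5.

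**Figure D3:**
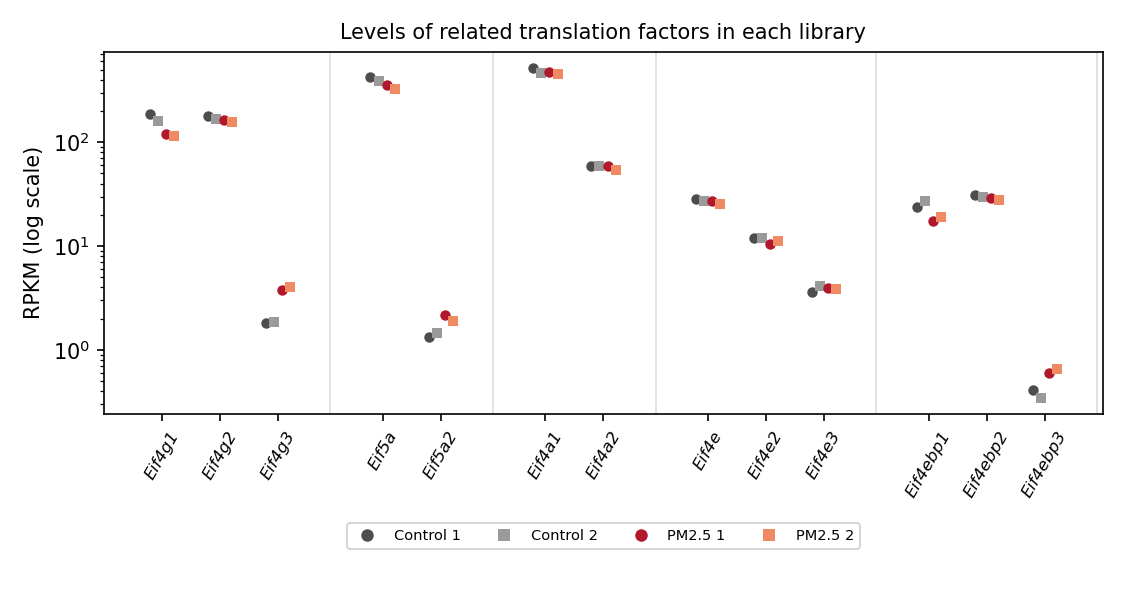
RPKM (log scale) of related translation factors in each of the 4 libraries, grouped by family. Eif4g1 is lower and Eif4g3 higher in both PM2.5 libraries, with Eif4g1 28.2 to 103 times above Eif4g3, while the points of Eif4a1 and of Eif4e3 overlap between groups.

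Genes whose proteins bind eIF4E and keep it from eIF4G were lower in 2 of 4 and higher in 0. Eif4ebp1, the mTOR-regulated inhibitor and a known target of the stress factor ATF4 (ENSMUSG00000031490, chromosome 8, 27750357 to 27766702, plus strand, GRCm39), had 56.7 and 65 CPM in controls and 41.7 and 45 CPM in PM2.5. Its log2 fold change was -0.49 (SE 0.0816, adjusted p = 0.000971). Eif4ebp2 had 216 and 208 CPM against 198 and 189 CPM (adjusted p = 0.0811), and the ratio of Eif4ebp1 to Eif4ebp2 in RPKM went from 0.759 and 0.904 to 0.612 and 0.688. Eif4ebp3 was barely detected, with 7 and 8 counts in controls and 11 and 11 in PM2.5 (adjusted p = 0.262). Eif4enif1, which carries eIF4E into the nucleus and represses messages, had 134 and 127 CPM against 93.5 and 96.8 CPM (log2 fold change -0.45, SE 0.0608, adjusted p = 0.000267). The calls on Eif4ebp1 and Eif4enif1 held in each of the 17 alternatives.

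Of the 5 genes of eIF5, eIF5A, eIF5B and eIF6, 2 were lower and 1 higher. Eif5a, the hypusine-bearing factor that helps ribosomes past difficult peptide bonds, had 1208 and 1108 CPM in controls and 1000 and 917 CPM in PM2.5 (log2 fold change -0.27, SE 0.0659, adjusted p = 0.00829). Its paralog Eif5a2 had 8.1 and 8.8 CPM against 13 and 11.3 CPM, and rose 1.44-fold (log2 fold change 0.52, SE 0.131, adjusted p = 0.0101). The RPKM of Eif5a was 315 and 266 times that of Eif5a2 in controls and 162 and 172 times in PM2.5. Both calls of this pair ended after trend removal (adjusted p = 0.0705 for Eif5a and 0.0584 for Eif5a2). By abundance Eif5a2 lay among the 3119 tested genes just above the 3120 least abundant. In that group 21.2% were higher, against 19.2% of all tested genes. Ratios of some other unequal pairs overlapped between groups, the mean ratio in PM2.5 being 1.01 times that in controls for Eif4a2 to Eif4a1 and 1.03 times for Eif3j1 to Eif3j2. Others did not. The ratio of Eif1b to Eif1 was 0.0706 and 0.076 in controls and 0.084 and 0.0852 in PM2.5, and that of Eif4ebp1 to Eif4ebp2 was lower in both PM2.5 libraries. Eif5, which makes eIF2 hydrolyse GTP at the start codon, had 303 and 282 CPM against 259 and 247 CPM (adjusted p = 0.0158). Eif5b, which joins the subunits, and Eif6, which keeps them apart, had overlapping groups (adjusted p = 0.487 and 0.328). Leaving out PM2.5 replicate 2 ended the calls on Eif5a and Eif5 (log2 fold changes -0.21 and -0.18). That on Eif5 also ended without Control replicate 1 (log2 fold change -0.16), with library-size scaling (adjusted p = 0.0525) and after trend removal (adjusted p = 0.107). That on Eif5a2 also ended without PM2.5 replicate 1 (log2 fold change 0.41) and with DESeq2 (adjusted p = 0.067).

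Of the eEF1 genes 3 of 5 tested were lower and 0 higher, and the single eEF2 gene was lower. Eef1a1, Eef2 and Eef1g had the highest RPKM of all members. Eef1a1, which encodes the tRNA carrier eEF1A1, had the sixth highest mean RPKM of all genes, at 4099 RPKM in controls and 3596 in PM2.5. In CPM it had 9974 and 9991 in controls and 8704 and 8534 in PM2.5, or a log2 change of -0.21 (SE 0.0598, adjusted p = 0.0172). Its brain and muscle paralog Eef1a2 had 0 counts in every library. Eef2, the translocase (ENSMUSG00000034994, chromosome 10, 81012465 to 81018332, plus strand, GRCm39), had 4302 and 4113 CPM against 3348 and 3322 CPM. Its log2 fold change was -0.34 (SE 0.0586, adjusted p = 0.00135), and the groups were far apart relative to their spread.

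The eEF1 subunits other than eEF1A did not move by equal amounts. Eef1d (delta) had 262 and 244 CPM in controls and 196 and 179 CPM in PM2.5 (log2 fold change -0.43, SE 0.0631, adjusted p = 0.00046), and Eef1g (gamma) 1791 and 1714 CPM against 1565 and 1534 CPM (log2 fold change -0.18, adjusted p = 0.029). Eef1b2 (beta), the third of them, had 660 and 700 CPM against 644 and 629 CPM (log2 fold change -0.10, adjusted p = 0.207). Eef1e1, which despite its name belongs to the tRNA synthetase complex, had 31.3 and 31.3 CPM against 28.8 and 23.4 CPM (adjusted p = 0.0581). Eef1a1 lost its call when either exposed library was dropped (0.107 with replicate 1 dropped, 0.158 with replicate 2), on the log2(RPKM + 0.1) scale (0.0695) and with library-size scaling (0.0511). Eef1g lost its call without those same libraries (0.13 and 0.208), with upper-quartile or library-size scaling, on both RPKM scales and after trend removal, whereas those on Eef2 and Eef1d held in each of the 17 alternatives.

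Of 6 tested genes for enzymes that modify elongation factors, 2 were lower and 0 higher. Eef1akmt4, a lysine methyltransferase of eEF1A (ENSMUSG00000115219, chromosome 16, 20430343 to 20437761, plus strand, GRCm39), had 14.8 and 14.1 CPM in controls and 8.05 and 7.43 CPM in PM2.5. Its log2 fold change of -0.89 (SE 0.122, adjusted p = 0.00029) was the largest fall among all tested translation factors. It overlaps Eef1ece2, a readthrough gene starting at position 20430360, whose raw counts were 37 in Control replicate 1 and 0 in the other 3 libraries while 768 to 1029 total gene reads fell on it; reads of this overlapping pair may not be separated. The share of Eef1akmt4's total gene reads outside its raw count was 23.4% in controls and 34.1% in PM2.5, and its call held on total gene reads. Eef2k, the kinase that switches off eEF2, had 43.1 and 42.1 CPM against 37.3 and 36.8 CPM (adjusted p = 0.0389). That call held in 8 of 17 alternatives, ending with any of the 4 libraries left out (adjusted p = 0.0504 to 0.172), with upper-quartile or library-size scaling, with DESeq2 (0.184) and on both RPKM scales. Eef1akmt1, another eEF1A methyltransferase gene, had 17.1 and 19 CPM against 17.4 and 15.7 CPM (adjusted p = 0.359). Its groups overlapped, as did those of Eef1akmt2, Eef1akmt3 and Eef2kmt.

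The 22 genes that were not tested had few or no counts. They included 16 eIF1A-domain genes clustered on chromosome 12, the helicase copies Eif4a3l1 and Eif4a3l2, and the cap-binding relative Eif4e1b. Among the 22, 7 had 0 counts in every library, and apart from Eef1ece2 none had more than 6 counts in any library. The tested gene of the eIF1A-domain group, Eif1ad on chromosome 19, had 72.2 and 65.4 CPM in controls and 75.4 and 75 CPM in PM2.5 (adjusted p = 0.16; called higher after trend removal, 0.0343).

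Chromosome position moved with some of these changes. For each gene the median log2 fold change of the 50 nearest tested genes that are not translation factors was taken. Eif2b5, Eef1akmt4 and Eif4g1 lie within 194 kb on chromosome 16, and their local medians were -0.26, -0.24 and -0.24. In that stretch and 1 Mb on either side, 10 of 15 other tested genes were lower and 0 higher (background 20.4% and 19.2%), with a median of -0.29. With the local median taken as an offset, the log2 fold changes of Eif2b5, Eef1akmt4 and Eif4g1 went to -0.23, -0.65 and -0.35, and all 3 stayed called (adjusted p = 0.0145, 0.00268 and 0.00498). Eif4enif1, with a local median of -0.22, went from -0.45 to -0.23 and stayed called. Eif1, with a local median of -0.16, went to -0.06 (adjusted p = 0.412), and was the one call lost. Eif4g3 had a local median of 0.14 and kept a log2 fold change of 0.93. With this offset 39 of the 61 were lower (63.9%, background 16%) and 2 higher (background 16.1%), with a median of -0.21. Without the genes on chromosome 16, and with no offset, 23 of 56 (41.1%, background 20.4%) were lower and 2 (3.57%, background 19.2%) higher.

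**Figure D4:**
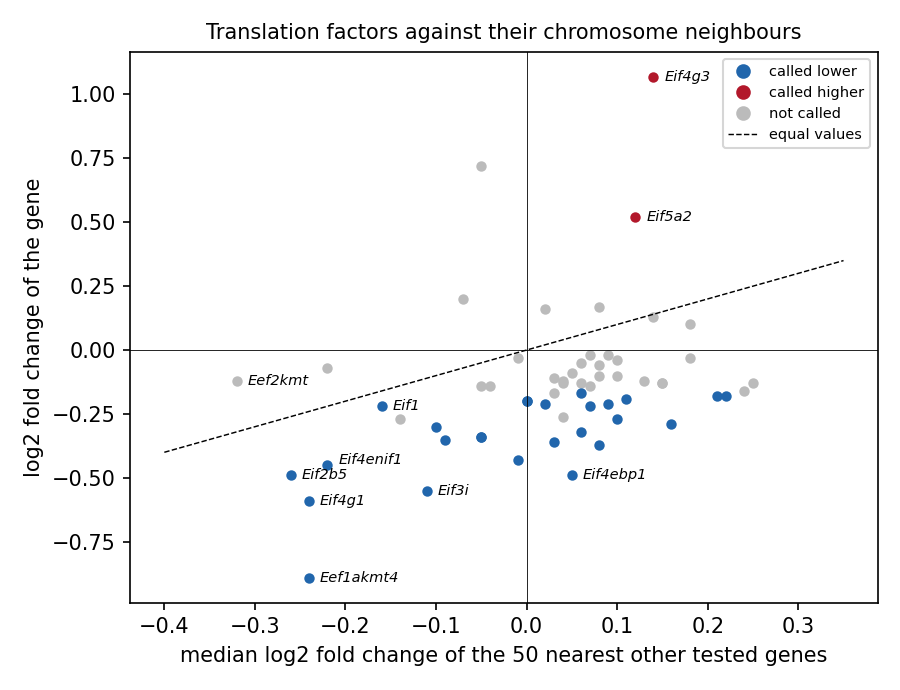
Log2 fold change of each tested translation factor (y axis) against the median log2 fold change of its 50 nearest other tested genes (x axis), coloured by call; the dashed line marks equal values. Most points lie below the line, and Eif2b5, Eef1akmt4 and Eif4g1 lie at local medians of -0.26 to -0.24.

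Over all tested genes 20.4% were lower and 19.2% higher. Other genes of the pathway gave counts similar to those of the members: of 50 tested, 21 (42%) were lower and 4 (8%) higher. Leaving out PM2.5 replicate 2 lowered both numbers, and also the shares called lower and higher over all tested genes. Among release, recycling, poly(A) and accessory factors, 8 of 20 were lower and 1 higher. The poly(A)-binding protein gene Pabpc4 fell from 231 to 139 CPM (log2 fold change -0.73, adjusted p = 2.84e-05) and the release factor gene Gspt1 from 304 to 216 CPM (adjusted p = 0.000195; 0.102 with the local offset). The higher gene was Impact, an inhibitor of the eIF2 kinase Gcn2, from 73.2 to 114 CPM (log2 fold change 0.63, adjusted p = 5.42e-05). Among regulators 9 of 20 were lower and 3 higher. Dhps and Dohh, which encode the enzymes that make the hypusine of eIF5A, fell as Eif5a did. Dhps went from a mean of 31.1 CPM to one of 21.8 CPM (adjusted p = 0.00105), and Dohh from 39.7 to 30 CPM (0.00178). Larp1, which binds TOP messages under mTOR control, fell from 512 to 379 CPM (adjusted p = 0.000462). The call on Dhps ended with the local offset (0.0753).

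Of the eIF2 kinases, Eif2ak1 and Eif2ak4 were lower (log2 fold changes -0.31 and -0.18, adjusted p = 0.00981 and 0.0463), Eif2ak3 was higher (0.25, 0.0208), and Eif2ak2 did not pass the test (0.08, 0.342). The call on Eif2ak1 ended without PM2.5 replicate 2 (0.112). That on Eif2ak3 ended without that library (0.156), without Control replicate 1 (0.0562), with DESeq2 (0.158) and after trend removal (0.0542). That on Eif2ak4 ended without Control replicate 2 (0.137) or either exposed library (0.321 and 0.0621), with DESeq2 (0.0872), with the stricter filter, with upper-quartile or library-size scaling and on both RPKM scales. Mitochondrial translation factors were lower in 4 of 10 and higher in 0 (background 20.4% and 19.2%). Mtif2, the mitochondrial initiation factor, fell from 30.4 to 19.7 CPM (log2 fold change -0.63, adjusted p = 0.000326), Tufm, the mitochondrial counterpart of eEF1A, from 152 to 122 CPM (0.00693), and the recycling factor gene Mrrf from 23.3 to 17.9 CPM (0.0122). The call on Mrrf ended without PM2.5 replicate 2 (0.0858), with DESeq2 (0.0552) and with the local offset (0.219), and that on Tufm after trend removal (0.0672).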

How the data were processed

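PolyA RNA was sequenced from 4 EpH4 libraries, made from 750 ng of total RNA with a stranded kit per the labels. Raw counts and RPKM per gene, and a further count named total gene reads, were deposited by the authors; the build is GRCm39 per the submitters' processing notes. No aligner, counter, annotation or strand setting is named there, and reads of overlapping genes and of the many processed pseudogenes of these families may not be separated. Total gene reads were never below the raw counts (median share outside the raw counts 4.76% for tested translation factors in controls); no header says what sets them apart.

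Genes were kept by filterByExpr (12478), scaled by TMM and tested with edgeR 4.0.16 (R 4.3.3), unpaired, with Benjamini-Hochberg adjustment over all genes and a threshold of 0.05. CPM are TMM scaled; each SE was derived from the log2 fold change and its F statistic. RPKM served for levels between genes.

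The members, lists and tests were chosen with earlier results of these data known. Values per library were given for up to 3 members per role with the smallest p, the largest called rises and falls, the 5 highest RPKM and named paralogs; other members named were picked after their values were seen. Of the other pathway genes, the 3 with the smallest p per list were named; the eIF2 kinases were added after their values were seen.

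Alternatives numbered 17: 3 scalings, no filter or a stricter one (1 CPM in 2 libraries and 50 counts), DESeq2 1.42.0, limma 3.58.1 (voom, and log2 RPKM with 0.1 or 1 added), a replicate block, each library left out, total gene reads in place of raw counts, the local offset from 50 neighbours, and, added after seeing the data, removal of the trend on abundance, GC content and length (12453 genes, all 61 tested members; spline with 4 degrees of freedom each, 10.4% of the variance; GC from GENCODE M21 transcripts).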

Additional observations from a re-analysis of the deposited data

How the results depend on the processing

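Of the 26 members called lower, 12 were called lower in each of the 17 alternatives, and of the 2 called higher Eif4g3 was called higher in each. The number lower was 17 with scaling to library size only (background 15.1%) and 17 after trend removal (background 19%). With a library left out it ranged from 16 without PM2.5 replicate 2, where 15 of the 26 stayed called, to 33 without Control replicate 2 (background 20.1%). The number higher was 4 with upper-quartile scaling, 5 with library size only and 1 with DESeq2, and 1 to 3 with a library left out. Among other translation genes, 2 were higher with DESeq2; with a library left out 12 to 24 were lower and 2 to 4 higher. The replicate block gave 37 lower members (background 23.8%) and 3 higher ones (background 22.4%), and 25 and 5 other translation genes. All 26 stayed called. Deviations of same-numbered samples had a correlation of 0.124 across genes. The numbers are not known to pair the samples. None of the called members turned its sign; 16 of the 33 not called did, under at least 1 alternative. With the positional offset the turned values were -0.01 for Eif1ad, 0.15 for Eif4a2, -0.08 for Eif6 and 0.20 for Eef2kmt. After trend removal they were 0.05 for Eif4a1, 0.04 for Eif4a2, 0.08 for Eif2s3x, 0.04 for Eef1b2, 0.09 for Eif3k, 0.01 for Eif1b, -0.19 for Eef1akmt3, 0.16 for Eif3e, 0.08 for Eif3h and 0.12 for Eif3d. With upper-quartile scaling they were 0.02 for Eif2s3x, Eif4e3 and Eif1b, 0.00 for Eif3e and 0.01 for Eif3d. With library size only they were 0.04 for Eif2s3x, Eif4e3 and Eif1b, 0.01 for Eif5b, 0.02 for Eef1akmt2 and Eif3e and 0.03 for Eif3d. On either RPKM scale they were 0.00 for Eif2s3x and Eif4e3 and 0.01 for Eif1b, and on total gene reads -0.09 for Eef1akmt3. With a library left out the values ran from -0.09 to 0.04 for Eif2s3x, -0.11 to 0.06 for Eif4e3, -0.02 to 0.21 for Eif6, -0.16 to 0.05 for Eef1akmt2, -0.07 to 0.03 for Eif1b, -0.12 to 0.52 for Eef1akmt3, -0.10 to 0.03 for Eif3d and -0.23 to 0.00 for Eef2kmt. The cause of these turns was not tested.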
